A study of Mus musculus with 5 samples.

Results

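Apolipoprotein transcripts were followed in bulk RNA-seq of mouse liver tumours driven by Akt and Notch. The 10 genes described are Apoa1, Apoa2, Apoa4, Apoa5, Apob, Apoc1, Apoc2, Apoc3, Apoe and Apom, found by symbol among the 55397 Ensembl genes of the deposited table, and all 10 were among the 17105 genes tested. There were 5 libraries, 2 Control and 3 with late Prox1 overexpression (Prox1 OE). All mice were female C57BL/6N, injected at 8 weeks of age by hydrodynamic tail vein injection, which forces a large volume of plasmid solution into the liver. Both groups received CMV-driven Sleeping Beauty transposase and transposon plasmids for Akt (pT3-EF1a-AKT) and for the intracellular domain of the Notch1 receptor with a doxycycline-responsive activator (pT3-EF1a-NICD-IRES-rtTA). Prox1 OE mice also received pT3-Tre-FLAG-mmProx1-IRES-GFP, and Control mice the same vector without Prox1 (pT3-Tre-IRES-GFP). A 6.25% doxycycline diet began on day 21, and Prox1 induction was described as running from week 3 to week 4. The EF1a and TRE promoters are not specific to hepatocytes, and the libraries were made from dissected tumours, which hold stromal and immune cells too. Tumours were taken after a week of induction or at a humane endpoint. Which applied to which library was not given, so the length of induction in each is not known. Nothing in the labels says whether libraries of a group came from separate mice, so p-values measure the spread between these 5 samples.

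Apolipoproteins are the protein part of lipoprotein particles, which carry cholesterol and triglycerides in blood. Most are made by hepatocytes, and some by the small intestine. APOB forms the scaffold of very-low-density lipoprotein (VLDL), APOA1 and APOA2 that of high-density lipoprotein (HDL), and the smaller proteins that move between particles set how fast lipoprotein lipase (LPL) removes triglyceride and how receptors take up what remains. PROX1 is a homeodomain transcription factor of hepatocytes, and Akt/Notch tumours resemble cholangiocarcinoma, the cancer of the bile ducts. The comparison asked what late Prox1 expression changed in such tumours.

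The members lie at 5 places in the mouse genome. Apoa1, Apoc3, Apoa4 and Apoa5 form a cluster of 43.3 kb on chromosome 9 (chr9:46228580-46271919), and Apoe, Apoc1 and Apoc2 lie with Apoc4 in 27.6 kb on chromosome 7 (chr7:19671579-19699188). Apoa2 (chr1:171225054-171226379), Apob (chr12:7977648-8016835) and Apom (chr17:35128997-35132050) lie apart. Coordinates and sequences are of GRCm38, the build of mm10. The stretches shown run upstream of the start sites of the 3 cluster genes on chromosome 9 that had a window, of the most and least changed members (Apoc2 and Apob) and of the most abundant (Apoe). They come from RefSeq promoter windows of GRCm38.p6, 250 bases upstream, trimmed to the bases outside annotated exons of protein-coding genes, and read 5′ to 3′ on the gene's strand. Capitals mark matches to 3 motifs searched on both strands, CAAAGNNCA (the HNF4-type site), AGGTCA (the nuclear receptor half-site) and TATAAA (the TATA box), which were chosen after the sequences had been seen.
Apoa1 (chr9:46228380-46228579, plus strand): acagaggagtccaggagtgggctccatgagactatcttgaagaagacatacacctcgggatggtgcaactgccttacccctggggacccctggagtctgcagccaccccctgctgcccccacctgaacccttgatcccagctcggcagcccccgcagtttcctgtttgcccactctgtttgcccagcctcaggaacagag
Apoa4 (chr9:46240594-46240695, plus strand): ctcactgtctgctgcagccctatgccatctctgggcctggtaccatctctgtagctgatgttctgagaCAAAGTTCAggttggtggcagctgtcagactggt
Apoa5 (chr9:46268383-46268632, plus strand): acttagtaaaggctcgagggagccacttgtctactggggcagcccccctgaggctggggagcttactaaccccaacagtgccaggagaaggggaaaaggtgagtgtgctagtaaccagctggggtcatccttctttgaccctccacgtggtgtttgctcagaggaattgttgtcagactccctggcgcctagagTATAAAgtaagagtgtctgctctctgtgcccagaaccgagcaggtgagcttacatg
Apoc2 (chr7:19677942-19678082, minus strand): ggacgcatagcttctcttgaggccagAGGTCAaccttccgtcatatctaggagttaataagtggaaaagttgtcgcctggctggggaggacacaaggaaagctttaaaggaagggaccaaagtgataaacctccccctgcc
Apoe (chr7:19699189-19699438, minus strand): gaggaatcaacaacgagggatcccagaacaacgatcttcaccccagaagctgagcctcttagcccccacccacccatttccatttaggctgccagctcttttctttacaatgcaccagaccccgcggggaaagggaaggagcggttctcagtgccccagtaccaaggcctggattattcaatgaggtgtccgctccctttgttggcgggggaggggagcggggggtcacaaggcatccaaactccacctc
Apob (chr12:7977427-7977647, plus strand): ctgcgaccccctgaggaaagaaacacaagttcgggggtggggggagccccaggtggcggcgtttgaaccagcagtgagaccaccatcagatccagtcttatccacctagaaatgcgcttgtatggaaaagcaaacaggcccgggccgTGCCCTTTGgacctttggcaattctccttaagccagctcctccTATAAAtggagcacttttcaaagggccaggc

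The 8 members with a window were searched over its full 250 bases. CAAAGNNCA was found in 2 of them, Apoa4 (182 to 174 bases before the RefSeq start) and Apob (103 to 95 bases before it, on the opposite strand, printed as TGCCCTTTG), against 5.49% of 32851 windows of all genes. TATAAA was found in 3, Apoa5 (56 to 51 bases before the start), Apob (60 to 55) and Apoa2 (212 to 207), against 12.4% of all windows. AGGTCA was found only in the window of Apoc2 (115 to 110 bases before the start), against 14.0% of all windows. None of the 3 motifs was in the windows of Apoa1, Apoe and Apom, which says only that these letters were not there. Of the 250 bases for Apom, 1 lay outside annotated exons of protein-coding genes, so that window was almost all exon. For Apoa4 the RefSeq start lay 148 bases from the GENCODE start, and 102 of the bases lay outside such exons. Apoc1 and Apoc3 had no window in the table. The motif matches are descriptions of sequence, and members with and without one are described together in what follows.

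All 10 apolipoprotein transcripts were higher in Prox1 OE tumours. Each passed the test (limma, Benjamini-Hochberg adjusted p under 0.05 over all genes tested), against 17.1% of all tested genes called higher and 16.2% called lower. For each of the 10, all 3 Prox1 OE libraries lay above both Control libraries, which was the case for 30.9% of all genes tested. The median log2 fold change over the members was 1.78, from 1.11 for Apob to 2.36 for Apoc2, and that over all genes tested was -0.02. Values below are normalised counts, that is reads divided by the size factor of the library, and fold changes are on the scale of log2(normalised count + 1). In bulk tissue, a larger number of cells that express a gene and more RNA per cell cannot be told apart.

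**Figure D1:**
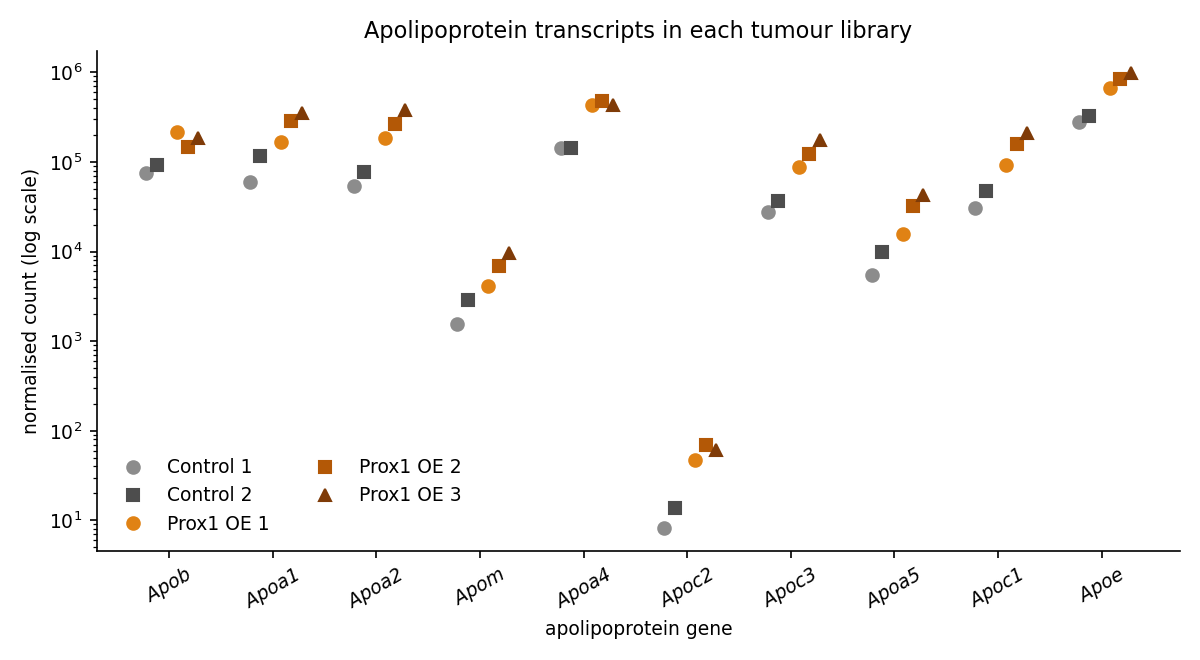
Normalised count (log axis) of the 10 apolipoprotein genes, 1 point per library, with both Control libraries in grey and the 3 Prox1 OE libraries in orange to brown. The Prox1 OE points lie above both Control points for all 10 genes, and Prox1 OE 1 is the lowest of its group for 9 of them.

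The outcome depended on which libraries were used. With Control replicate 1 left out, fold changes of all 10 kept their sign (from 0.97 for Apob to 2.03 for Apoc2), but only Apoc2 was still called, at an adjusted p of 0.0495. Without Control replicate 2, 7 members were called and Apoa4, Apob and Apoe were not. Without Prox1 OE replicate 2, 6 were called, and Apoa1, Apoa5, Apoe and Apom were not. Leaving out Prox1 OE replicate 3 lost the call of Apoa1 alone, and leaving out Prox1 OE replicate 1 lost none. The count of all genes called fell to 1158 without Control replicate 1 and to 2270 without Control replicate 2, from 5702.

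Libraries held 48740863 to 56629477 reads, and 1 read was worth 0.822 to 1.18 normalised counts. Prox1 itself, which the plasmid adds to, stood at 4153 and 4664 normalised counts in Control and at 48090, 11113 and 8231 in Prox1 OE replicates 1 to 3. All 3 Prox1 OE libraries were above both Controls, but the fold change of 1.90 ± 0.66 (SE, log2) did not pass limma's test, with an adjusted p of 0.061. Hepatocyte markers (Alb, Ttr, Cps1 and others) were present throughout, and 8 of 10 were higher in Prox1 OE, with a median log2 fold change of 1.87 (from 1.09 to 2.81) and summed levels of 1028440 and 1507810 in Control against 3082810 to 4585600. Of 10 cholangiocyte markers, 9 were tested and 7 were lower, with sums of 758943 and 828042 against 523659 to 707881. Macrophage markers (5 of 10 higher, sums 34354 and 39319 against 53860 to 76129) and sinusoidal endothelium markers (4 of 8 higher, sums 7769 and 10414 against 12409 to 17905) were also above their Control levels. Stellate cell markers had sums of 42731 and 43309 against 31560 to 34381, with 2 of 8 higher and 1 lower. In these 5 lists no marker was at 0 in every library. What part these cell types had in the apolipoprotein levels was not tested.

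Apob encodes the large scaffold protein of VLDL and of the low-density lipoprotein derived from it. Its transcript stood at 75095 and 91320 normalised counts in Control replicates 1 and 2 and at 215122, 145733 and 184014 in Prox1 OE replicates 1, 2 and 3. It was the only member for which Prox1 OE replicate 1 was the highest of its group. On the log2 scale the change was 1.11 ± 0.25 (SE), the smallest of the 10 (limma adjusted p = 0.014). The lowest Prox1 OE value was 1.60 times the highest Control value.

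Among the HDL genes, Apoa1 encodes the main structural protein of the particle and the activator of the cholesterol-esterifying enzyme LCAT. It stood at 59291 and 116612 normalised counts in Control and at 164957, 283572 and 354811 in Prox1 OE. The Control libraries differed 1.97-fold from each other and the Prox1 OE libraries 2.15-fold. The log2 fold change of 1.62 ± 0.41 (SE) had the highest adjusted p of the 10, at 0.023 (limma). Apoa2, the second structural HDL protein, stood at 53501 and 76621 in Control and at 184621, 268408 and 379208 in Prox1 OE. Its groups were wider apart, with the lowest Prox1 OE value 2.41 times the highest Control value and a log2 fold change of 2.05 ± 0.35 (SE, limma adjusted p = 0.0055). Apom, which carries the signalling lipid sphingosine 1-phosphate on HDL, was far less abundant, at 1541 and 2881 in Control and 4164, 6882 and 9668 in Prox1 OE. The rise of 1.63 ± 0.37 (SE, log2, limma adjusted p = 0.016) was close to that of Apoa1. The 5 libraries stood in the same order for both genes, as they did for Apoa2, Apoa5, Apoc1, Apoc3 and Apoe.

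Apoa4 encodes a protein of chylomicrons and HDL that the intestine makes in large amounts and the mouse liver also makes. It had the tightest groups of all, at 144506 and 141460 normalised counts in Control and 428102, 477917 and 431948 in Prox1 OE. The highest value was 1.02 times the lowest in Control and 1.12 times in Prox1 OE. The rise was 1.64 ± 0.26 on the log2 scale (SE, limma adjusted p = 0.0048). Of 8 enterocyte markers listed, 7 were in the table and 3 were tested, 1 higher and 1 lower, with sums of 9805 and 12528 in Control and 18258 to 20958 in Prox1 OE. Alpi and Sis were at 0 in every library. On the opposite strand, Gm10680, an antisense gene that covers 632 of the 1815 exon bases of Apoa4, was at 41.9 and 45.8 normalised counts in Control and at 136, 166 and 124 in Prox1 OE.

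The 4 members whose products act on LPL were all called higher, Apoc3 and Apoc1 among its inhibitors and Apoa5 and Apoc2 among its activators. Apoc3, an inhibitor of LPL and of remnant uptake, stood at 27559 and 36837 normalised counts in Control and at 88464, 122130 and 174665 in Prox1 OE, a log2 fold change of 1.96 ± 0.30 (SE, limma adjusted p = 0.0043). Apoa5, which raises LPL activity, stood at 5514 and 9913 in Control. In Prox1 OE it was at 15730, 32531 and 42542, the widest range within a group, at 2.70-fold. The rise was 1.92 ± 0.42 (SE, log2, limma adjusted p = 0.014), which differed from that of Apoc3 by less than either standard error. Apoc1, which hinders LPL and receptor binding, stood at 30374 and 47009 in Control and at 91424, 159149 and 211962 in Prox1 OE, with a log2 fold change of 1.95 ± 0.37 (SE, limma adjusted p = 0.0083).

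Apoc2, the cofactor that LPL needs, was recorded at 8.22 and 13.6 normalised counts in Control and at 47.0, 69.6 and 61.3 in Prox1 OE. Its log2 fold change of 2.36 ± 0.38 (SE, limma adjusted p = 0.0047) was the largest among the members, although its counts were the lowest. With a pseudocount of 10 it was 1.73, below the values of Apoa2 (2.05), Apoc3 (1.96), Apoc1 (1.95) and Apoa5 (1.92). A readthrough gene on the same strand, Gm44805, covers 646 of the 813 exon bases of Apoc2 (79.5%) and leaves 167 of its own, and Gm44805 was itself at 2.36 to 17.4 normalised counts. How the authors' counting treated reads that fit both genes was not given, and its effect on the recorded level was not tested.

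Apoe, the ligand by which cell-surface receptors take up remnant particles, was the most abundant member in normalised counts, at 276399 and 327037 in Control and at 663924, 849955 and 971362 in Prox1 OE. It ranked 9 among all genes by mean normalised count in Control and 4 in Prox1 OE. The rise was 1.44 ± 0.36 (SE, log2, limma adjusted p = 0.022). When limma was fitted without its mean-variance trend, Apoe was still called, as were 7 other members, while Apoa1 and Apom were not.

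Levels were also put per kilobase of exon, over the joined exons of all annotated transcripts (2138 bases for Apoe, 537 for Apoa2). That length can differ from the length of the mRNA present, so levels of different genes compare only roughly. On this measure Apoe (141121 normalised counts per kb) and Apoa2 (121157) led in Control, and their ranges overlapped. In Prox1 OE the means stood in the other order, with Apoa2 at 516596 and Apoe at 387471 per kb, and the ranges again overlapped. Apoa4, Apoa1, Apoc1 and Apoc3 followed in that order in both groups. Among these, the ranges of Apoa4 and Apoa1 overlapped in both groups, as did those of Apoa1 and Apoc1. Apoc3 lay below Apoc1 without overlap in Control (31753 against 52005 per kb), while in Prox1 OE their ranges overlapped (126647 against 207229). Apob, Apoa5 and Apom were lower again, at 5972, 3058 and 2183 per kb in Control and at 13035, 12001 and 6816 in Prox1 OE. Apob lay above Apoa5 without overlap in Control, and the ranges overlapped in Prox1 OE. Apoc2 was last in both, at 13.4 and 73.0 per kb.

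The 10 genes together took 1.56% and 1.85% of all reads in Control replicates 1 and 2 and 3.23%, 4.08% and 4.21% in Prox1 OE replicates 1, 2 and 3. Albumin alone took 1.11% and 1.74% in Control and 3.45%, 2.71% and 3.96% in Prox1 OE. Counting error was small beside the spread between libraries, the widest 95% Wilson binomial interval for the 10 genes together running from 4.07% to 4.09%, and such intervals cover counting error only. Means were 1.71% ± 0.21 (SD, n = 2) in Control and 3.84% ± 0.53 (SD, n = 3) in Prox1 OE, a difference of 2.14 percentage points. A two-sided exact permutation test gave p = 0.2. That is the smallest value this form of the test can give with 2 against 3 libraries, so it could not fall under 0.05.

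**Figure D2:**
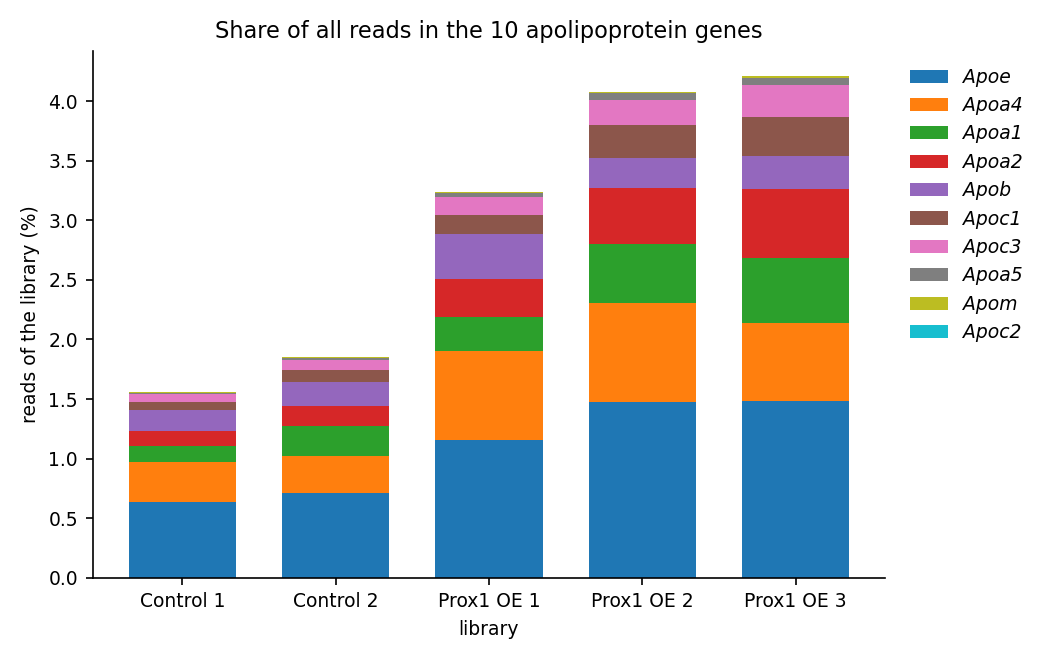
Share of all reads of each library (percent) that fell on the 10 apolipoprotein genes, stacked by gene, 1 bar per library. The bars reach 1.56% and 1.85% in Control and 3.23% to 4.21% in Prox1 OE, and Apoe is the largest part of each bar.

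Within that total the mixture shifted modestly. Apoe made up 41.0% and 38.5% of apolipoprotein reads in Control and 35.8%, 36.2% and 35.2% in Prox1 OE, so the groups did not overlap. Apoa2 made up 7.94% and 9.02% in Control and 9.94%, 11.4% and 13.7% in Prox1 OE, also without overlap. Apob took 11.1% and 10.7% in Control and 11.6%, 6.21% and 6.67% in Prox1 OE, where replicate 1 lay above both Controls and the other 2 libraries below them. Apoa4 varied as much within groups (21.4% and 16.6% in Control, 23.1%, 20.4% and 15.6% in Prox1 OE) as between them. The ratio of Apoa2 to Apoa1 was 0.902 and 0.657 in Control and 1.12, 0.947 and 1.07 in Prox1 OE, without overlap. The ratio of Apob to Alb was 0.156 and 0.114 in Control and 0.109, 0.0935 and 0.0709 in Prox1 OE, with every Prox1 OE library below both. For Apoa1, Apoe and Apoa4 the ratio to Alb overlapped between the groups.

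Libraries kept a nearly constant order across the members. Control replicate 1 was the lower Control for 9 of 10, all but Apoa4. Prox1 OE replicate 1 was the lowest of its group for 9 of 10, all but Apob, and Prox1 OE replicate 3 was the highest for 7. Prox1 OE replicate 1 was also the library with the most Prox1 transcript, at 48090 normalised counts against 8231 in replicate 3. The relation between Prox1 level and apolipoprotein level was not tested.

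To set the members against other secreted products of hepatocytes, the mean log2 level of 24 plasma protein genes, none of them an apolipoprotein, was subtracted in each library and the fit was repeated over all genes. That mean was 14.74 and 15.20 in Control and 15.85, 16.29 and 16.61 in Prox1 OE. On the relative scale 3 of the 10 members were still higher, namely Apoa2 (0.77 ± 0.25, SE, adjusted p = 0.0039), Apoc3 (0.67 ± 0.28, adjusted p = 0.023) and Apoc1 (0.66 ± 0.27, adjusted p = 0.021), against 1.07% of all genes called higher and 70.0% called lower on that scale. No member was called lower by limma, and none at an unadjusted p under 0.05 (0 of 10). Values for the other 7 were 1.08 for Apoc2, with a 95% interval from -0.08 to 2.24, 0.64 for Apoa5 (-0.02 to 1.29), 0.36 for Apoa4 (-0.08 to 0.80), 0.35 for Apom (-0.40 to 1.10), 0.34 for Apoa1 (-0.14 to 0.81), 0.16 for Apoe (-0.23 to 0.56) and -0.17 for Apob (-0.66 to 0.33). These intervals include 0 and do not show that the genes followed the plasma proteins exactly. The median over the 10 was 0.50, and that over all genes tested was -1.30.

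The relative result depended on the reference and on single libraries. With 10 hepatocyte markers as the reference, 3 of which (Alb, Ttr and Trf) are also in the plasma protein list, 1 member was called and it was lower, Apob at -0.90 (adjusted p = 0.019), while Apoa2 was at 0.04, Apoc1 at -0.07 and Apoc3 at -0.06. With the plasma protein reference, 1 member (Apoa2) was called without Control replicate 2, without Prox1 OE replicate 2 and without Prox1 OE replicate 3. Without Control replicate 1 the count was 0 (limma, 2 at an unadjusted p under 0.05), and without Prox1 OE replicate 1 it was 5, with Apoa2, Apoa5, Apoc1 and Apoc3 higher and Apob lower.

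**Figure D3:**
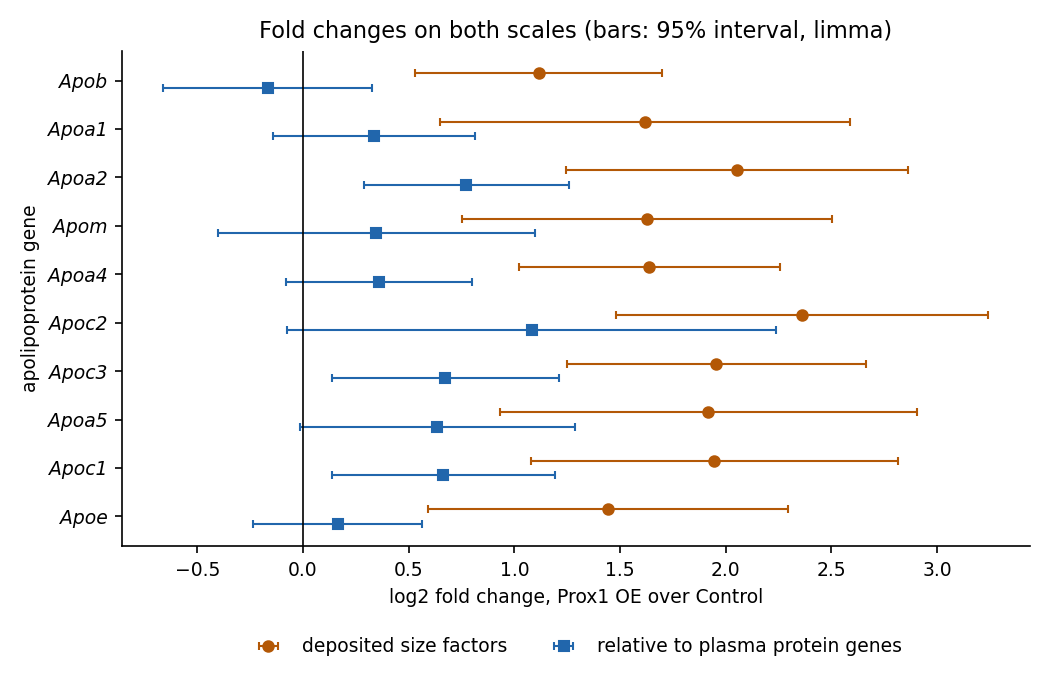
Log2 fold change of Prox1 OE over Control for the 10 genes, with 95% intervals from limma, on the deposited size factors (circles) and relative to 24 plasma protein genes (squares). All 10 circles lie between 1.11 and 2.36 with intervals above 0, while the intervals of 7 of the 10 squares include 0.

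Genes beside the members did not move with them as a group. In the cluster on chromosome 9 the 4 members had log2 fold changes of 1.62 to 1.96, and Sik3, the coding gene on its one side, was at -0.04 (adjusted p = 0.80). On its other side Zpr1, whose nearest end is 1145 bases from Apoa5, was at 0.66 and was not called (adjusted p = 0.052), and Bud13 beyond it was at 0.05 (adjusted p = 0.83). On chromosome 7 Apoe, Apoc1, Apoc4 and Apoc2 ran from 1.44 to 2.36, and the nearest coding genes, Tomm40 and Clptm1, were at 0.13 and -0.14 (adjusted p = 0.38 for both, limma). These 5 flanking genes were chosen for their position after their values had been seen. Of 50 protein-coding genes within 100 kb of a member and outside the lists used here, 42 were tested, 9 were higher and 7 were lower, with a median of 0.00. The largest changes among all neighbours were those of Gm48633 (1.82) near Apob, the cytokine gene Tnf (-1.71) near Apom, the protease gene Adamts4 (-1.69) near Apoa2, and Gm10680 (1.66), opposite Apoa4. Next came Nr1i3, a nuclear receptor gene whose nearest end is 4353 bases from Apoa2, at 613 and 1298 normalised counts in Control and at 1748, 3244 and 3966 in Prox1 OE (1.66 ± 0.40, SE, adjusted p = 0.019). It is named beyond the rule after its values had been seen.

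**Figure D4:**
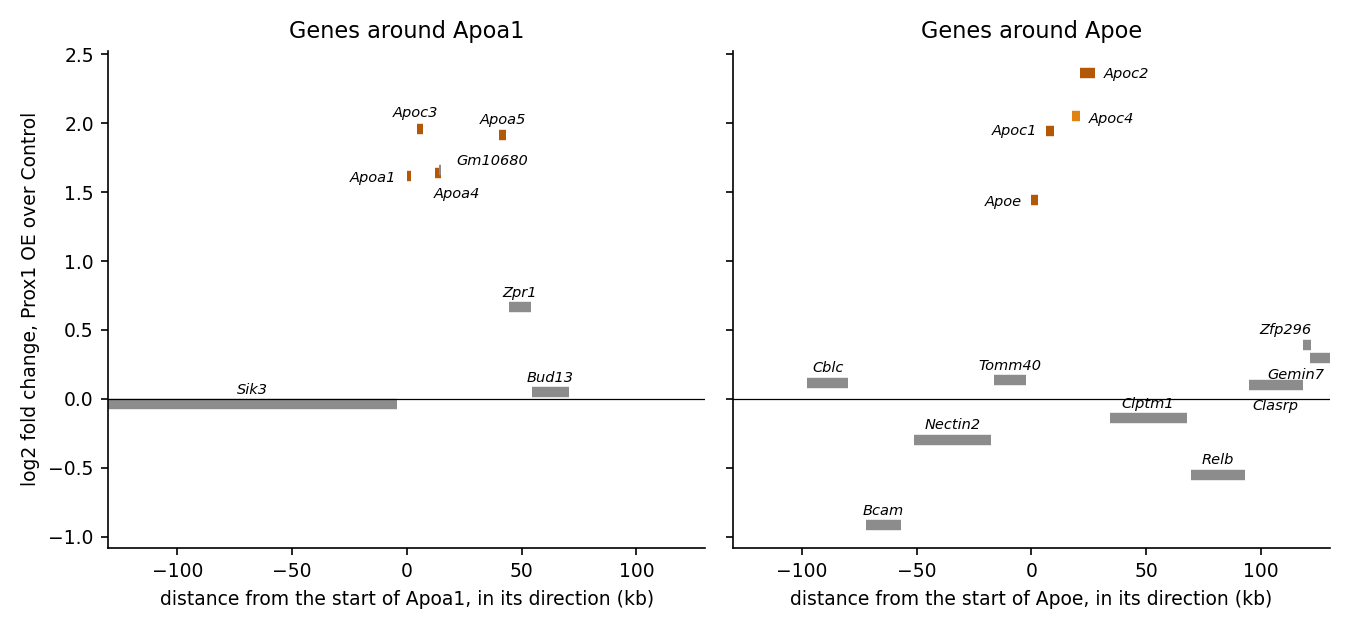
Log2 fold change of Prox1 OE over Control for tested genes around Apoa1 (left) and Apoe (right), each drawn as a bar over its extent in kb from the start of that gene. The apolipoprotein genes (dark orange, with Apoc4 lighter) lie at 1.44 and above, and the other coding genes (grey) lie at 0.66 or below, while Gm10680, the antisense gene opposite Apoa4, is at 1.66.

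Other apolipoproteins rose with the members in part. Of 22 listed, 17 were tested, 12 were higher and 5 were not called (0 lower by limma and by edgeR, and 1 lower at an unadjusted p under 0.05 by DESeq2), with a median log2 fold change of 1.51. One of the 12, Apol7c, was at 2.46 and 0.848 normalised counts in Control, at or under 3 reads, and at 5.11, 21.2 and 23.1 in Prox1 OE. It passed the filter on low values only through Prox1 OE, so its call carries no weight and no fold is given. The counts of 12 and 17 and the median of 1.51 still include it. Apoc4, which lies between Apoc1 and Apoc2, stood at 4590 and 6992 in Control and at 15163, 24929 and 34187 in Prox1 OE (2.05 ± 0.33, SE, adjusted p = 0.0050). Apol9b (2.01) and Apol7a (2.01), of the intracellular APOL family, were also higher. Apol9a and Apol9b are near-identical copies, so reads could be split between them. Clu, the apolipoprotein also known as clusterin, was the exception among the abundant genes of the list, at 446669 and 431221 normalised counts in Control and at 340736, 366450 and 254033 in Prox1 OE (-0.47 ± 0.31, SE, adjusted p = 0.28). It is named outside the rule for its direction, after its values had been seen.

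Genes that load lipid onto APOB or move the particle through the secretory pathway were mixed. Of 19 tested, 10 were higher and 1 was lower, with a median log2 fold change of 0.65. The leading genes were Tm6sf2 (1.73, adjusted p = 0.0028), a VLDL lipidation factor, Dgat2 (1.65, adjusted p = 0.0026), which makes triglyceride, Pla2g12b (1.63, adjusted p = 0.0031), needed for VLDL secretion, and Cideb (1.62, adjusted p = 0.0024), a lipid droplet protein of VLDL maturation. Mttp, the transfer protein that lipidates nascent APOB, stood at 4104 and 5081 normalised counts in Control and at 13698, 9741 and 14921 in Prox1 OE. Its ratio to Apob was 0.0546 and 0.0556 in Control and 0.0637, 0.0668 and 0.0811 in Prox1 OE, without overlap. The 1 gene that fell was Sort1, a sorting receptor that binds APOB, at 10031 and 9573 in Control and at 6888, 5777 and 4449 in Prox1 OE (-0.80 ± 0.18, SE, adjusted p = 0.015). Apobec1, the enzyme that edits Apob mRNA, was at 0.15 ± 0.16 (SE, adjusted p = 0.52). Mttp, Sort1 and Apobec1 were named for their roles after their values had been seen.

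Among genes that remodel the particles in blood or export sterol, 19 were tested. Of these, 13 were higher and 6 were not called (0 lower by limma, also at an unadjusted p under 0.05, and 0 by edgeR and DESeq2), with a median of 0.95. Abcg8 and Abcg5, which together form a sterol exporter, were both higher, Abcg8 by 2.15 (adjusted p = 0.0032) and Abcg5 by 1.78 (adjusted p = 0.0060). Angptl8, a secreted regulator of LPL, rose by 1.97 (adjusted p = 0.0028), and Lcat, which APOA1 activates, by 1.62 (adjusted p = 0.0030). Levels of Lcat were 2650 and 3652 normalised counts in Control and 7941, 9107 and 12209 in Prox1 OE.

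Receptors for these particles had a median of 0.19, the lowest of the lipoprotein gene lists, with 8 of 17 higher and 1 lower by limma, while edgeR called 3 lower and DESeq2 called 2. The largest fitted value, -3.67 for the multiligand receptor Lrp2, rested on 1 library, since Lrp2 was at 18.9 and 2209 normalised counts in Control and at 25.6, 8.26 and 17.4 in Prox1 OE, and it was not called (adjusted p = 0.13). Olr1 (-1.60, adjusted p = 0.055) and Cubn (-1.38, adjusted p = 0.052), an APOA1-binding receptor, were at 5.79 to 31.4 and were not called by limma either. Vldlr, which binds APOE, was the 1 called lower by limma, at 2624 and 2996 in Control and at 1343, 1429 and 1284 in Prox1 OE (-1.05 ± 0.12, SE, adjusted p = 0.0025), and it was named after its values had been seen.

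Transcription factors and nuclear receptors known to act on apolipoprotein genes included 13 of 27 that were higher and 3 that were lower, with a median of 0.66. The largest change was that of Nr0b2 (2.56 ± 0.30, SE, adjusted p = 0.0025), a repressor of nuclear receptors, at 198 and 312 normalised counts in Control and at 1043, 1973 and 1535 in Prox1 OE. Onecut1, a factor of hepatocyte and bile duct development, fell by 1.87 on the log2 scale (adjusted p = 0.016), and Nr1h3, an oxysterol receptor that induces Apoe, rose by 1.63 (adjusted p = 0.0024). Prox1 was the remaining gene among the 4 with the largest values. Hnf4a, the receptor whose type of site was searched for above, stood at 8414 and 10194 in Control and at 19482, 18576 and 24052 in Prox1 OE (1.15 ± 0.16, SE, adjusted p = 0.0033). Relative to the plasma protein genes Hnf4a was at -0.13 (adjusted p = 0.73).

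The plasma protein genes used as a reference had 17 of 24 members higher and 7 not called (0 lower by limma, also at an unadjusted p under 0.05, and 0 by edgeR and DESeq2), with a median of 1.26. A1bg had the largest fitted value (2.62, adjusted p = 0.071), which rested on Prox1 OE replicates 2 and 3 (564 and 789 normalised counts) and not replicate 1 (63.4). The coagulation proteins Serpind1 (1.89, adjusted p = 0.0033) and Serpinc1 (1.86, adjusted p = 0.0028) and the thyroxine carrier Ttr (1.79, adjusted p = 0.0052) came next. Alb stood at 480678 and 798691 in Control and at 1978960, 1559110 and 2594530 in Prox1 OE (1.69 ± 0.52, SE, adjusted p = 0.043). The fibrinogen genes, which the acute phase response raises, had the lowest values of the list, from 0.31 to 0.55, and did not pass the test (adjusted p from 0.22 to 0.40). They were picked out after their values had been seen.

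**Figure D5:**
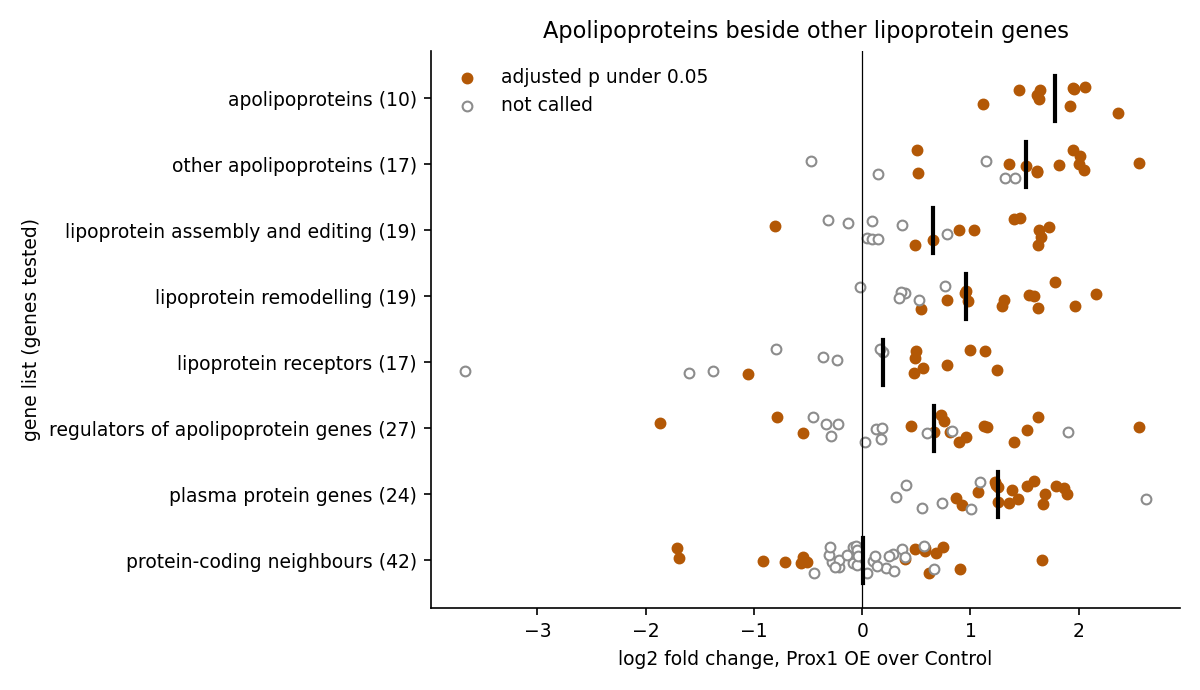
Log2 fold change of Prox1 OE over Control for each tested gene of the lists, filled where limma's adjusted p was under 0.05, with the list median as a black bar. The apolipoproteins lie from 1.11 to 2.36, while the 7 other lists drawn reach lower values, with medians from 0.00 for protein-coding neighbours to 1.51 for other apolipoproteins.

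With the total count as library size in place of the size factors, the median of all genes tested moved to -0.45, and the split of calls changed from 2933 higher and 2769 lower to 1472 higher and 6856 lower. All 10 apolipoproteins were still called higher on that scale, with a median of 1.35. Receptors changed direction there, with a median of -0.24 and 3 higher against 5 lower. Coding neighbours went to 2 higher and 16 lower with a median of -0.43, regulators to 8 higher and 7 lower (median 0.23), and genes of assembly and editing to 8 higher and 4 lower (median 0.22). Other apolipoproteins had 9 of 16 higher and 1 lower (median 1.03), remodelling genes 11 of 19 higher (median 0.52), and plasma protein genes 18 of 24 higher (median 0.82). Stellate cell markers went to 1 higher and 3 lower (median -0.18), and sinusoidal endothelium markers to 3 higher and 2 lower (median 0.37). Hepatocyte markers had 9 of 10 higher, macrophage markers 4 of 10 higher, and cholangiocyte markers 8 of 9 lower.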

How the data were processed

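RNA from 5 mouse liver tumours (2 Control, 3 Prox1 OE) was sequenced by the authors from dUTP libraries as paired reads, mapped to mm10 with STAR and normalised with DESeq2 size factors. The deposited values are a signal per gene and library, normalised counts, each a whole multiple of 1 read (100% within 0.01). The counting tool and its strand setting were not given in the sources used here. A second deposited table holds the authors' own DESeq2 comparison (mean, shrunken fold change, p-values) and was not used. Symbols came from GENCODE M21, which matched 55137 of 55397 identifiers (99.53%). No column was left unassigned (0).

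Genes with a mean of at least 10 were tested with limma 3.58.1 in R 4.3.3 (eBayes with trend, two-sided, no covariate) on log2(value + 1), with Benjamini-Hochberg adjustment at 0.05, after a check on simulated counts. The relative fit subtracted the library's mean log2 of 24 plasma protein genes. Alternatives were TMM, upper-quartile and total-count scaling, pseudocounts of 0.1 and 10, no filter or a mean of 50, limma without trend, edgeR 4.0.16 and DESeq2 1.42.0 on recovered reads, a replicate block, each library left out, and hepatocyte markers as reference. Chi-square per degree of freedom between replicates was 36.2 to 115, so no library was a duplicate.

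The members and lists were chosen with earlier results of these data known. Named were the 10 members, Prox1, Alb, Hnf4a, and from each list the 4 tested genes of largest absolute log2 fold change, with at most 4 neighbours within 100 kb. Others are marked. A gene that the rule names among the receptors is not reported here.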

Additional observations from a re-analysis of the deposited data

How the results depend on the processing

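All 10 members kept the sign of their fold change under every alternative of scaling, pseudocount, filter, test, block and left-out library, and 140 of 159 such values stayed on the same side of the threshold. Members called numbered 10 under TMM, upper-quartile and total-count scaling, both pseudocounts, no filter, edgeR (5761 genes called in all) and DESeq2 (6647). With a mean of at least 50 Apoc2 was not tested and the other 9 were called, and limma without the trend called 8 (not Apoa1 and Apom). The median log2 fold change moved beyond the spread between replicates only with the total count as library size, to 1.35. Leaving out single libraries gave 1 to 10 members called, 1158 to 7491 genes called and a median of 1.56 to 2.13. Where that left 1 Control library, it was assumed to vary like the Prox1 OE libraries. The cause of the lost calls was not tested, though fewer libraries were fitted. The relative count of 3 became 1 with hepatocyte markers as the reference, 5 with the replicate block, and 0 to 5 with single libraries left out. With hepatocyte markers as reference, fold changes turned negative for Apoa1 (-0.40), Apoa4 (-0.37), Apoa5 (-0.10), Apoc1 (-0.069), Apoc3 (-0.059), Apoe (-0.57) and Apom (-0.39), and without Prox1 OE replicate 2 that of Apob turned to 0.0021, within a range of -0.50 to 0.0021 over the left-out libraries. Samples with the same replicate number correlated at 0.137 and 0.016 in their deviations from the group mean, over only 2 pairs, so the numbers are not shown to pair the tumours. The fit with the replicate block called 10 members, 5262 genes and a median of 1.64, and it added Apoa5 and Apoc2 on the relative scale. Depth limits Apoc2, at 10 to 16 reads per Control library.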
